A study of Mus musculus with 20 samples.

Results

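The genes described here are 7 genes of the MHC class II antigen presentation pathway, namely Cd74, H2-Aa, H2-Ab1, H2-Eb1, H2-DMa, H2-DMb1 and Ciita. They were taken by symbol from the count tables, and all 7 of the 7 listed symbols were found among the 43280 genes counted. They were chosen by their counts in the adult libraries, which differed between the genotypes in earlier results of these data, so that adult difference is given as a description without a test. RNA-seq covered 12 libraries of GFP+ mesenchymal cells sorted from mouse gut, 2 in each of 6 groups. The question of the study is how loss of Eed, a core subunit of Polycomb repressive complex 2 (PRC2), changes mesenchymal gene expression. In the 8 embryonic libraries, from stomach and intestine at E13.5 (embryonic day, in mid-gestation), the labelled strain was C57BL/6. Controls carried Bapx1-cre and the Rosa26mTmG reporter, and Eed KO embryos carried homozygous floxed Eed (Eedfl/fl) in addition. Bapx1-cre is active in the mesenchyme of both organs, and cells that have expressed Cre, with their descendants, keep membrane GFP. The 4 adult libraries are labelled only as WT or EED-KO intestinal mesenchyme. By the methods of the study they came from the small intestine of mice of about 10 weeks. All adult mice carried the tamoxifen-inducible Pdgfrβ Cre-ERT2 allele and Rosa26mTmG, and the Eed KO mice also carried Eed fl/fl. The methods describe daily tamoxifen injections, with mice of the Eed deletion analyses dissected 2 days after the last dose. No separate schedule is given for the sorted mice. Villi and epithelium had been removed before the sort. Beside the C57BL/6 label of the embryonic libraries, the study's reporting summary gives mixed strain backgrounds for its embryonic and adult mice. ATAC-seq of the 4 embryonic conditions gave 1 peak list per condition, called on pooled replicates.

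MHC class II molecules present peptides taken from endosomes to CD4 T cells. H2-Aa and H2-Ab1 encode the α and β chains of the I-A molecule, and H2-Eb1 encodes the β chain of I-E. The invariant chain encoded by Cd74 escorts new class II dimers to the endosome, where H2-DMa and H2-DMb1 form the H2-M dimer that exchanges its last fragment for peptide. Ciita is the coactivator that switches these genes on together. It does not bind DNA itself but docks on RFX and NF-Y, factors that sit on the X and Y boxes of class II promoters. The pathway is best known in macrophages, dendritic cells and B cells, and other cells can acquire it under interferon gamma.

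Promoter sequences are shown because the embryonic peak lists bear on them. Of the 7 genes, 4 had an entry among the RefSeq promoters used here (GRCm38.p6, 250 bases before to 50 bases after the annotated start). The motifs were chosen after the sequences had been seen. The Y box was searched as TGATTGG and the X box core as GNAAC lying 10 to 40 bases before it, both on either strand and without overlap between the motifs. In the sequences below, read 5′ to 3′ on the strand of the gene, capitals mark the X box core and the Y box. The 3 members with both are followed by H2-DMb2, a second H2-M β chain gene and no member. Its entry holds the Y box and the letters GNAAC, but not as a pair at that distance.
H2-Aa, chr17:34287774-34288073, minus strand: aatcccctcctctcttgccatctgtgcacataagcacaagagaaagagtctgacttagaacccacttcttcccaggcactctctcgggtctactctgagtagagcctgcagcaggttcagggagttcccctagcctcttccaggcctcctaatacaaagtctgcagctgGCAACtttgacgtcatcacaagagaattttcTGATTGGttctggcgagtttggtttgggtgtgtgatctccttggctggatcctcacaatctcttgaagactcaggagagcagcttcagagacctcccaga
H2-Eb1, chr17:34305617-34305916, plus strand: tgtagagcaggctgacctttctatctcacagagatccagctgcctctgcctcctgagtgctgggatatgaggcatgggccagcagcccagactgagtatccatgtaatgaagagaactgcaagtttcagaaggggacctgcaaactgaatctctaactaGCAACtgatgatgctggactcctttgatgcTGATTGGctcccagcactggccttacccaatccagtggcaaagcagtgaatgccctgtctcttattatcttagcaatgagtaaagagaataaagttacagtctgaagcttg
H2-DMb1, chr17:34152941-34153240, plus strand: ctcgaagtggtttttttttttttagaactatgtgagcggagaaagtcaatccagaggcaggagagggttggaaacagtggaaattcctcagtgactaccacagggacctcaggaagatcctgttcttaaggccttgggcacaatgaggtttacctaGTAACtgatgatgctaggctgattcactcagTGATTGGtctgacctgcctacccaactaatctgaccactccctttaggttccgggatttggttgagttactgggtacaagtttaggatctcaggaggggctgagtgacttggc
H2-DMb2, chr17:34144999-34145298, plus strand: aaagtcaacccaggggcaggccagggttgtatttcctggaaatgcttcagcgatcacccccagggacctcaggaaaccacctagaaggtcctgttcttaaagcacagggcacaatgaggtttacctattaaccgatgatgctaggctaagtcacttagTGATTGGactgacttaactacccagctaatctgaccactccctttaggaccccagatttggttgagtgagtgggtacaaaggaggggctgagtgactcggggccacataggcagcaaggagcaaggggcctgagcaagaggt
In H2-Aa and H2-Eb1 the X box core read GCAAC and in H2-DMb1 it read GTAAC. The gap between core and Y box was 26 bases in H2-Aa, 25 in H2-Eb1 and 26 in H2-DMb1. The Y box began 50, 61 and 63 bases before the start, in the same order. Among all 32851 promoters of this length, the Y box letters occurred in 7.82%, the X core letters in 84.8%, and the pair on either strand in 0.828%. The 2 entries for H2-DMa begin elsewhere than the gene model used for counting and hold no such pair. The start of the H2-DMb1 entry also lies downstream of the start of its gene model. The distance of its Y box and the positions of its peaks below therefore refer to different starts. H2-Ab1, Cd74 and Ciita are named only. A match is a description of the letters and not a site shown to be bound.

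Gene counts per library were between 30236159 and 39606157 in the embryonic and between 11404712 and 15903642 in the adult data. Counts are given as CPM (counts scaled to library size with TMM factors) within a stage, and as TPM, which also divides by gene length, where genes or stages are set side by side. A count of 0 allows up to 0.0757 to 0.0992 CPM in an embryonic library and up to 0.189 to 0.263 CPM in an adult one, counting error only. Eed was read first as a check of the labels. At E13.5 it had a log2 fold change of -2.02 (SE 0.21, edgeR adjusted p = 0.0046) in the Eed KO intestine and -2.11 (SE 0.21, adjusted p = 0.0017) in the stomach. With scaling by spike-in RNA these became -0.23 and 0.14 (adjusted p = 0.76 and 0.85), because the median of all genes then moved by 1.85 and 2.39. In the adult control libraries Eed stood at 29.7 and 33.4 CPM and in the libraries labelled Eed KO at 25.7 and 25.05 CPM. That is a log2 fold change of -0.32 (SE 0.21, adjusted p = 0.32), so the adult labels are carried below as the libraries labelled Eed KO. Gene-level counts may include exons left undeleted, which was not tested. The study reports a separate measure of Eed deletion in isolated pericryptal cells, which was not examined here. The study describes its sequencing samples as biological replicates, while the labels do not name the animals or embryos behind them, and p-values measure the spread between these samples. Embryonic libraries had mesenchymal markers at a summed 13596 to 25204 CPM and Ptprc, the pan-leukocyte antigen CD45, at 0 or 1 counts in each.

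The 7 genes spanned a wide range of levels, from absent or a few counts in the embryonic mesenchyme to Cd74 as the gene with the most counts in both adult libraries labelled Eed KO. Their TPM summed to 4.89 to 16.0 in the 8 embryonic libraries, to 5629 and 7992 in the adult controls, and to 197368 and 225767 in the adult libraries labelled Eed KO. No embryonic library came near an adult one. Summed TPM was 1080 times higher in adult than in embryonic control intestine. Kit, strandedness, Cre driver, sort and age all differ between the stages and cannot be told apart, so this contrast has no test. In bulk samples, too, fewer cells of a type and less RNA per cell cannot be told apart.

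**Figure D1:**
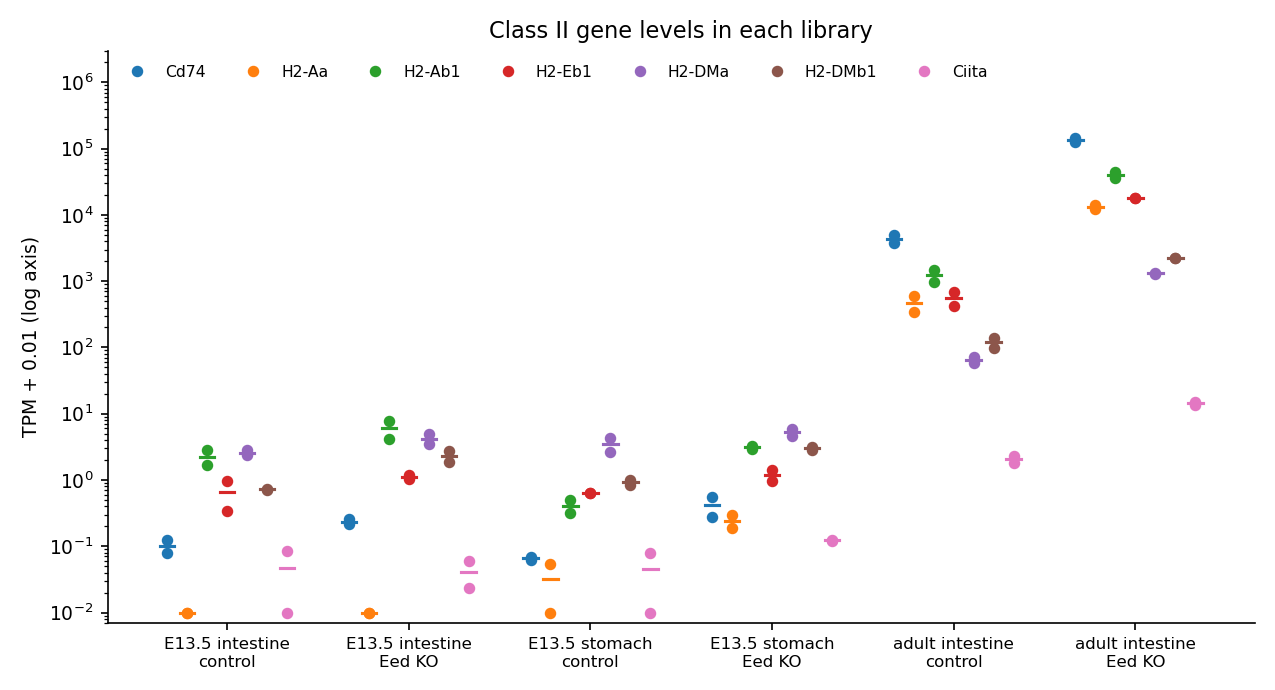
TPM + 0.01 on a log axis for the 7 genes in each of the 12 RNA libraries, with 2 points per group and a bar at their mean. Every gene sits highest in the 2 adult libraries labelled Eed KO, and H2-Aa sits at 0 TPM in all 4 embryonic intestinal libraries.

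The order of the genes, per length, differed between the stages. In both adult groups it ran from Cd74 through H2-Ab1, H2-Eb1, H2-Aa, H2-DMb1 and H2-DMa to Ciita. In the adult controls these had mean TPM of 4363 for Cd74, 1234 for H2-Ab1, 558 for H2-Eb1, 470 for H2-Aa, 119 for H2-DMb1, 64.3 for H2-DMa and 2.03 for Ciita, and only H2-Eb1 and H2-Aa overlapped as neighbours. The invariant chain thus led the adult order and the coactivator closed it. At E13.5 the editor gene H2-DMa came first in 3 of the 4 groups, with mean TPM of 2.58 in control intestine, 3.44 in control stomach and 5.28 in Eed KO stomach. In the Eed KO intestine H2-Ab1 came first with a mean of 5.98 TPM, overlapping H2-DMa at 4.20 TPM. Cd74 was then in place 5 of 7 in each embryonic group, with means of 0.0554 to 0.402 TPM, and H2-Aa was listed at 0 in the intestine of both genotypes. The α and β chains of I-A were thus not found together there: H2-Ab1 had 34 and 47 counts in the control and 96 and 148 counts in the Eed KO intestine, while H2-Aa had none.

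For each gene across the groups, both adult groups stood above all embryonic groups without overlap. How many of all genes separate in this way, or in the orders below, was not counted. These separations are therefore a description and nothing is read from them. H2-Ab1 followed in the order Eed KO intestine (4.19 and 7.76 TPM), Eed KO stomach (2.96 and 3.29), control intestine (1.66 and 2.82) and control stomach (0.303 and 0.496), and none of these neighbours overlapped. H2-DMb1 ran from the Eed KO stomach (2.86 and 3.17 TPM) through the Eed KO intestine (1.85 and 2.70) to the control stomach (0.834 and 0.994) and control intestine (0.701 and 0.727), again without overlap. H2-DMa lay closer together, and each of its 4 embryonic groups overlapped the next in order. H2-Eb1 did not separate the 2 Eed KO groups from each other, nor the 2 control groups.

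In the adult intestine, all 7 genes stood higher in both libraries labelled Eed KO than in both controls. Cd74 had 2128 and 2845 CPM in the controls and 77747 and 90764 CPM in the libraries labelled Eed KO, a 33.9-fold difference (log2 fold change 5.08, SE 0.27). These Cd74 counts were 0.255% (95% exact binomial interval 0.252 to 0.258) and 0.332% (0.329 to 0.335) of all gene counts in the controls. They were 6.78% (6.77 to 6.80) and 7.38% (7.37 to 7.39) in the libraries labelled Eed KO. One gene therefore took a share of these libraries large enough to bear on scaling, but with the 7 genes left out of the scaling the median of their differences was 4.91 on the log2 scale against 4.92 with them.

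The peptide-binding chains differed by similar amounts. H2-Aa went from 265 and 448 CPM to 9831 and 11676 CPM, a log2 fold change of 4.92 (SE 0.33). H2-Ab1 went from 652 and 981 CPM to 25708 and 31970 CPM, a log2 fold change of 5.14 (SE 0.31). H2-Eb1 went from 204 and 329 CPM to 9072 and 9495 CPM, a log2 fold change of 5.12 (SE 0.31). Both chains of I-A and the β chain of I-E thus lay within 1 SE of Cd74. The H2-M editor genes came next, H2-DMa with 38.5 and 46.9 CPM against 911 and 967 CPM, a log2 fold change of 4.46 (SE 0.23), and H2-DMb1 with 59.1 and 84.1 CPM against 1413 and 1470 CPM, a log2 fold change of 4.33 (SE 0.26). Ciita, the coactivator, had the smallest difference and the lowest level, with 3.88 and 4.76 CPM against 34.2 and 31.2 CPM, a log2 fold change of 2.92 (SE 0.27). In each gene the lowest library labelled Eed KO exceeded the highest control, as in 32.3% of all genes tested.

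A gene was called when its edgeR adjusted p was below 0.05 and its log2 fold change exceeded 1 in either direction. By that rule 7 of 7 genes were called higher, beside 12.3% of all 15039 genes tested. Since these genes were proposed with this contrast known, nothing is read from that count. With spike-in scaling, the split of all calls moved from 1856 higher and 1088 lower to 1154 higher and 1321 lower, and the median of all genes to -0.42. Relative to that median the 7 genes stood at 2.90 (Ciita) to 5.05 (H2-Ab1) on the log2 scale. Cd74 shares an interval with Mir5107 on its own strand, and Ciita overlaps Dexi on the opposite strand, whose reads cannot be told apart in the unstranded adult counts. H2-DMb1 and H2-DMb2 are close copies, and how reads shared by them were assigned is not given in the sources used here.

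The mix of class II transcripts was nearly the same in both adult groups for the chains and shifted for the regulator. Of the counts on the 7 genes, Cd74 took 63.5% and 60.04% in the controls and 62.3% and 62.0% in the libraries labelled Eed KO. H2-Ab1 took 19.5% and 20.7%, then 20.6% and 21.8%. Ciita took 0.116% and 0.101% in the controls but 0.0274% and 0.0213% in the libraries labelled Eed KO, a mean 0.226 times as large. The editor genes lay between, at a mean 0.651 times the control share for H2-DMa and 0.604 times for H2-DMb1.

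The rest of the class II pathway was read from lists of genes other than these 7, with the edgeR test over all genes. These lists too were chosen with earlier results known, so their counts are no independent support. All 4 other class II genes tested were called higher in the adult libraries labelled Eed KO, beside 12.3% of all genes tested. H2-DMb2, the second H2-M β chain, had 34.5 and 39.9 CPM in the controls and 568 and 396 CPM in the libraries labelled Eed KO (log2 fold change 3.70, SE 0.26, edgeR adjusted p = 0.0002). H2-Eb2, an I-E-like β chain gene, had 2.20 and 3.92 CPM against 574 and 171 CPM (log2 fold change 6.92, SE 0.69, adjusted p = 0.00078), so the libraries labelled Eed KO differed from each other by more than those of any member. H2-Oa and H2-Ob, which form the H2-O dimer that restrains H2-M, rose by 2.34 (SE 0.58, adjusted p = 0.028) and 2.28 (SE 0.40, adjusted p = 0.0074) on the log2 scale. The call for H2-Oa was lost without control replicate 2 (adjusted p = 0.096) or without Eed KO replicate 1 (adjusted p = 0.099). H2-Ea-ps, the I-E α chain locus, was at 0 in both controls and did not pass the low-count filter.

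Genes for endosomal processing were called higher in 4 of 7 cases and lower in none, beside 12.3% and 7.23% of all genes tested. Ctss, cathepsin S, which trims the invariant chain in antigen-presenting cells, rose from 120 and 175 CPM to 4482 and 4718 CPM (log2 fold change 4.96, SE 0.27, adjusted p = 0.00012). Ifi30, the thiol reductase GILT, rose by 3.19 (SE 0.20, adjusted p = 0.00013), Lgmn (legumain) by 2.30 and Ctsb (cathepsin B) by 2.13 on the log2 scale. Ctsl, Ctsd and Sppl2a did not pass, at 0.16, 0.31 and 0.65 on the log2 scale. Costimulation and class II turnover genes were called higher in 5 of 6 cases. Cd83, which protects surface class II from turnover, rose by 5.57 on the log2 scale, from 93.2 and 95.5 CPM to 3878 and 5099 CPM. Cd86 and Cd80, ligands of CD28, rose by 5.01 and 4.64, the ubiquitin ligase gene March1 by 3.79 and Cd40 by 2.26, whereas its relative March8 had -0.12 and did not pass.

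The factors that Ciita docks on were not called. None of the 9 promoter factor genes was called in the adult comparison by edgeR or DESeq2, 1 (Ep300) had an unadjusted p below 0.05, and the list had a median log2 fold change of -0.02 beside 0.00 for all genes tested. Rfx5 had 1.32 and 1.33 CPM in the controls and 1.51 and 0.31 CPM in the libraries labelled Eed KO (adjusted p = 0.66), and Rfxap, with at most 2.20 CPM, had -1.78 on the log2 scale (SE 0.95, adjusted p = 0.22). In the interferon gamma route, 1 of the 7 genes tested and described here was called higher and none lower. That is near the 12.3% of all genes tested that were called higher. Ifngr2, a receptor chain, had 70.4 and 84.3 CPM in the controls and 154 and 205 CPM in the libraries labelled Eed KO (log2 fold change 1.22, SE 0.22, adjusted p = 0.0091). The call was lost with spike-in scaling (adjusted p = 0.41), without control replicate 1 (adjusted p = 0.05, not below the threshold) or without Eed KO replicate 2 (log2 fold change 0.99). Ifng itself was at 0 CPM in 3 of the 4 adult libraries and at 0.49 CPM in control replicate 2.

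**Figure D2:**
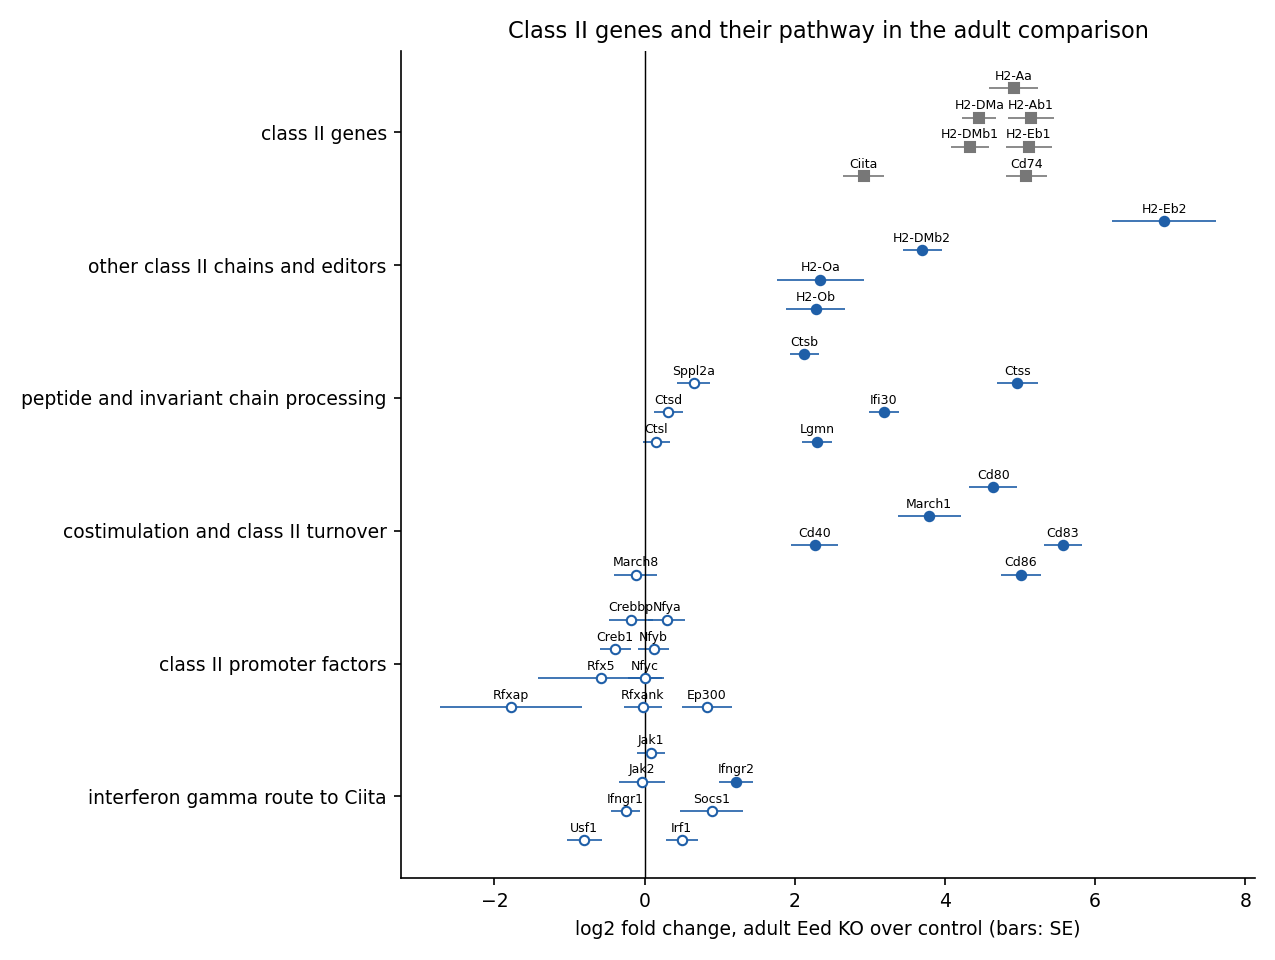
Log2 fold change, adult libraries labelled Eed KO over control (2 libraries each), with SE bars, for the 7 class II genes (grey squares, given as a description) and the genes of 5 pathway lists that passed the low-count filter (circles, filled where called). The chains, processing enzymes and costimulatory genes lie mostly between 2 and 7, and the promoter factors lie around 0.

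Markers of leukocytes moved with the class II genes in the adult libraries. Macrophage markers summed to 679 to 1008 CPM in the controls and to 21155 to 21196 CPM in the libraries labelled Eed KO, and all 11 tested were called higher, with a median log2 fold change of 4.97 beside 4.92 for the 7 class II genes and 0.00 for all genes. Among them, Csf1r, the receptor for macrophage colony-stimulating factor, had 20.9 and 44.2 CPM against 1090 and 984 CPM (log2 fold change 4.99, SE 0.40, adjusted p = 0.00033). C1qa, a complement subunit gene of tissue macrophages, had 27.8 and 63.1 CPM against 1797 and 2001 CPM. All 8 pan-leukocyte markers were called higher as well, and their sum went from 237 to 257 CPM up to 3057 to 3333 CPM. Of all genes tested, 12.3% were called higher. Class II CPM per macrophage marker CPM was 4.93 and 4.70 in the controls and 5.90 and 6.91 in the libraries labelled Eed KO, a mean 1.33 times as high. Per CPM of mesenchyme markers it was 0.132 and 0.166 against 8.35 and 10.4. The part of these markers in the class II difference was not tested.

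Other cell type lists followed less closely, and their counts stand beside 12.3% of all genes tested called higher. Dendritic cell markers were called higher in 5 of 9 cases, among them Itgax (CD11c) with 7.17 and 5.96 CPM against 166 and 120 CPM, but not for Flt3, Zbtb46, Clec9a and Siglech. The call for Xcr1 in this list was lost without control replicate 1 (adjusted p = 0.062) and with spike-in scaling (adjusted p = 0.075). B cell markers summed to 2117 to 2118 CPM in the controls and 994 to 1024 CPM in the libraries labelled Eed KO. Of 9 tested, 4 were called higher and 2 lower, so the sum and the members did not go one way. Igkc, the immunoglobulin κ constant region and most of this sum, fell by 1.87 on the log2 scale (SE 0.19, adjusted p = 0.00086), and Cd79a fell by 1.23, a call lost without control replicate 1 (adjusted p = 0.13) or Eed KO replicate 1 (0.081). Cd22, an inhibitory B cell receptor, rose by 4.26, Ighm by 2.47, Cd79b by 2.39 and Blnk by 1.88. Of 7 T cell markers only Cd4, which macrophages can also express, was called higher, a share near that of all genes tested. Cd3e had a log2 fold change of -0.09. None of 9 epithelial markers was called by edgeR or DESeq2, and 1 (Krt20) had an unadjusted p below 0.05. Endothelial markers were called higher in 2 of 8 cases, Pecam1 by 1.43 and Cldn5 by 2.61 on the log2 scale, of which Cldn5 was lost without control replicate 2 (adjusted p = 0.069) or Eed KO replicate 2 (0.14) and Pecam1 with spike-in scaling (0.21). Of 3 glia and neuron markers tested, 1 (Elavl4) was called higher. In the smooth muscle and pericyte list, 2 of 8 were called higher and 1 lower. Rgs5, a pericyte gene and most of that list's sum, went from 13184 and 11315 CPM to 4333 and 3069 CPM, whereas Myh11 rose by 1.04 and Cnn1 by 1.34 on the log2 scale. Both of these were lost with spike-in scaling (adjusted p = 0.5 and 0.37) and without Eed KO replicate 2 (log2 fold change 0.92 for Myh11, adjusted p = 0.082 for Cnn1), Myh11 also without control replicate 2 (adjusted p = 0.067) and Cnn1 without control replicate 1 (0.093). Mesenchyme markers were called lower in 4 of 8 cases, beside 7.23% of all genes tested, including Pdgfra, which went from 1153 and 917 CPM to 327 and 270 CPM.

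**Figure D3:**
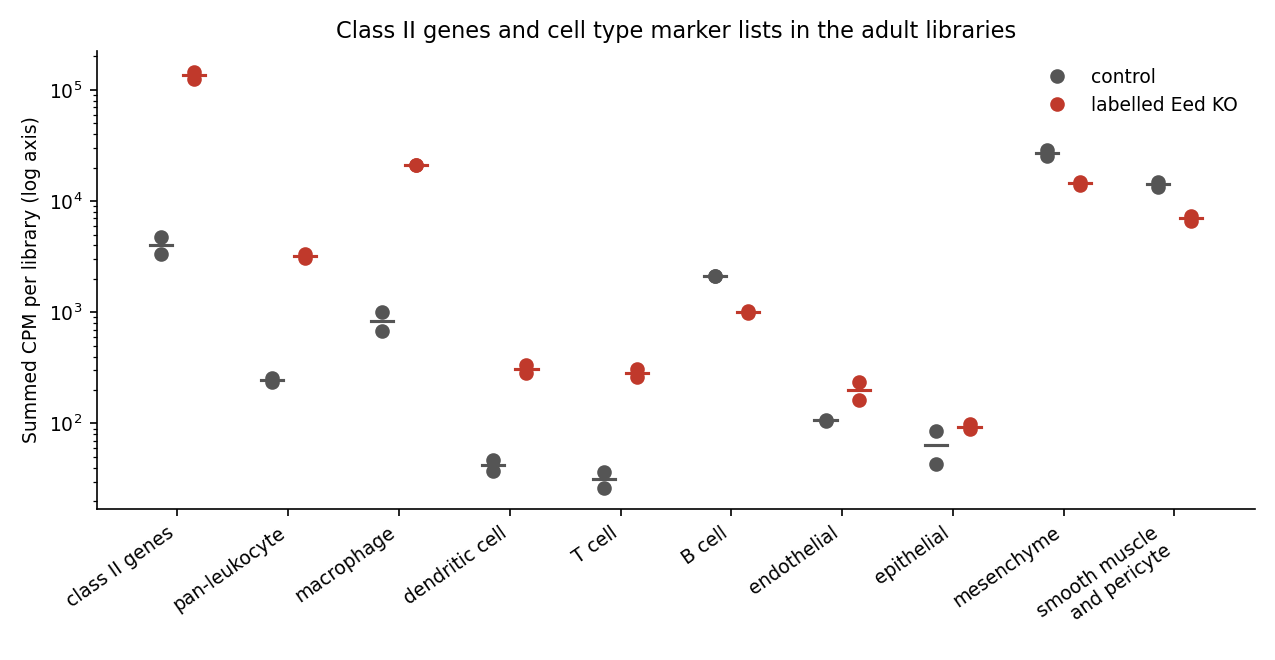
Summed CPM on a log axis for the 7 class II genes and 9 cell type marker lists in the 4 adult libraries, 2 points per group and a bar at their mean. The sums of class II genes and of pan-leukocyte, macrophage, dendritic cell, T cell, endothelial and epithelial markers are higher in both libraries labelled Eed KO. The sums of B cell, mesenchyme and smooth muscle markers are lower in both, the first and the last carried by Igkc and Rgs5 with other members called higher.

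The genes with profiles most like that of Cd74 were sought by the root mean square difference of centred log2(CPM + 1), a description over libraries that share their grouping. Over the 4 adult libraries the closest 5 outside the 7 genes were Cd68 (0.0417), Cd300a (0.0693), Ctss (0.09), Cd86 (0.0931) and Clec7a (0.106). Cd68, a lysosomal glycoprotein, had 23.1 and 29.1 CPM in the controls and 830 and 952 CPM in the libraries labelled Eed KO. Among the 7 genes, H2-Ab1 was number 3 in this order, H2-Eb1 number 7 and H2-Aa number 9, whereas H2-DMa was number 61, H2-DMb1 number 79 and Ciita number 457. Over all 12 RNA libraries H2-Aa, H2-Ab1 and H2-Eb1 came first, and the closest 5 others were Ctss (1.95), Lyz1 (2.00), C1qb (2.18), Dpt (2.30) and Apoe (2.39). This order takes in the distance between the stages and does not require a like difference between genotypes. Dpt, unlike Cd74, was lower in the adult libraries labelled Eed KO, at 2562 and 2058 CPM against 3592 and 3465 CPM in the controls.

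In the embryonic stomach, Eed KO mesenchyme had more H2-Ab1 and H2-DMb1 RNA than control mesenchyme, both at low levels. H2-Ab1 had 6 and 11 counts in the controls and 64 and 64 counts in the Eed KO libraries (0.174 and 0.280 against 1.72 and 1.76 CPM), a 7.47-fold increase (log2 fold change 2.90, SE 0.44, edgeR adjusted p = 0.0099). H2-DMb1 had 15 and 20 counts against 56 and 56 (0.435 and 0.510 against 1.502 and 1.536 CPM), a 3.19-fold increase (log2 fold change 1.67, SE 0.33, adjusted p = 0.024). In both genes each Eed KO library lay above each control, as in 27.7% of all genes tested. H2-Eb1 (0.261 and 0.255 against 0.402 and 0.548 CPM) had a log2 fold change of 0.87 (SE 0.49, adjusted p = 0.35), and H2-DMa (2.43 and 1.504 against 2.68 and 3.18 CPM) 0.58 (SE 0.29, adjusted p = 0.3).

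Of the 7 genes, 4 passed the low-count filter of the embryonic fit and 3 did not. In the stomach, Cd74 had 1 and 1 counts in the controls and 5 and 9 in the Eed KO libraries, H2-Aa had 1 and 0 against 7 and 4, and Ciita had 0 and 5 against 8 and 7. Counts this small set no fold change. In all 7 genes the Eed KO stomach libraries lay above the controls without overlap, as 27.7% of all genes tested did. Among the 4 tested, 2 were called higher, beside 4.84% of all genes tested in that direction. Both calls depended on single libraries. H2-Ab1 was lost without control replicate 1 (adjusted p = 0.078) or control replicate 2 (0.06), and H2-DMb1 without control replicate 1 (0.15), control replicate 2 (0.12), Eed KO replicate 1 (0.083) or Eed KO replicate 2 (0.12). Both were lost with 1 RUVg factor from the spike-in RNA (adjusted p = 0.1 and 0.16). Across the alternatives run the adjusted p ranged from 6.9e-06 to 0.1 for H2-Ab1 and from 0.00038 to 0.16 for H2-DMb1. With spike-in scaling the edgeR adjusted p was 9.2e-06 for H2-Ab1 and 0.00038 for H2-DMb1. Under that scaling the median of all genes moved by 2.39 and most genes tested were called, so these values do not single out the 2 genes.

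In the embryonic intestine, the same 2 genes had higher means in the Eed KO libraries, but neither was called. H2-Ab1 had 0.955 and 1.58 CPM in the controls and 2.53 and 4.22 CPM in the Eed KO libraries (log2 fold change 1.42, SE 0.36, edgeR adjusted p = 0.096). H2-DMb1 had 0.365 and 0.370 CPM against 1.48 and 0.913 CPM (log2 fold change 1.70, SE 0.35, adjusted p = 0.05, not below the threshold). In both genes each Eed KO intestine library lay above each control. H2-DMa (1.63 and 1.31 against 2.11 and 2.68 CPM) had 0.70 (SE 0.30, adjusted p = 0.37), and H2-Eb1 (0.393 and 0.135 against 0.449 and 0.456 CPM) had 0.73 (SE 0.50, adjusted p = 0.65). Cd74 had 2 and 1 counts against 4 and 4, H2-Aa 0 in all 4 libraries, and Ciita 0 and 4 against 1 and 3. In 5 of the 7 genes, all but H2-Aa and Ciita, the Eed KO libraries lay above the controls without overlap, beside 21.8% of all genes tested. Beside 0 of 4 genes called by edgeR, 2.38% of all genes tested were called higher, and both H2-Ab1 and H2-DMb1 had an unadjusted p below 0.05.

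Without the low-count filter, or with DESeq2, both H2-Ab1 (adjusted p = 0.016 and 0.036) and H2-DMb1 (adjusted p = 0.013 and 0.043) passed the threshold in the intestine. Over the alternatives with all libraries, the adjusted p ranged from 0.0036 to 0.55 for H2-Ab1 and from 0.0066 to 0.12 for H2-DMb1. Both low ends came from edgeR with spike-in scaling, under which the median of all genes moved by 1.85 and most genes tested were called. They therefore do not single out these genes. With each library left out in turn, the log2 fold change ranged from 1.00 to 1.81 for H2-Ab1 and from 1.30 to 2.00 for H2-DMb1. Whether the effect differed between the organs was tested directly in the same fit. The difference, stomach minus intestine, was 1.48 (SE 0.58) for H2-Ab1 with an edgeR adjusted p of 0.78, and -0.02 (SE 0.44) for H2-DMb1 with an adjusted p of 1, so a difference between organs was not detectable. For this test 0.462% of all genes were called at an adjusted p below 0.2, and of the 4 class II genes tested none was called by edgeR or DESeq2 and 1 (H2-Ab1) had an unadjusted p below 0.05.

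**Figure D4:**
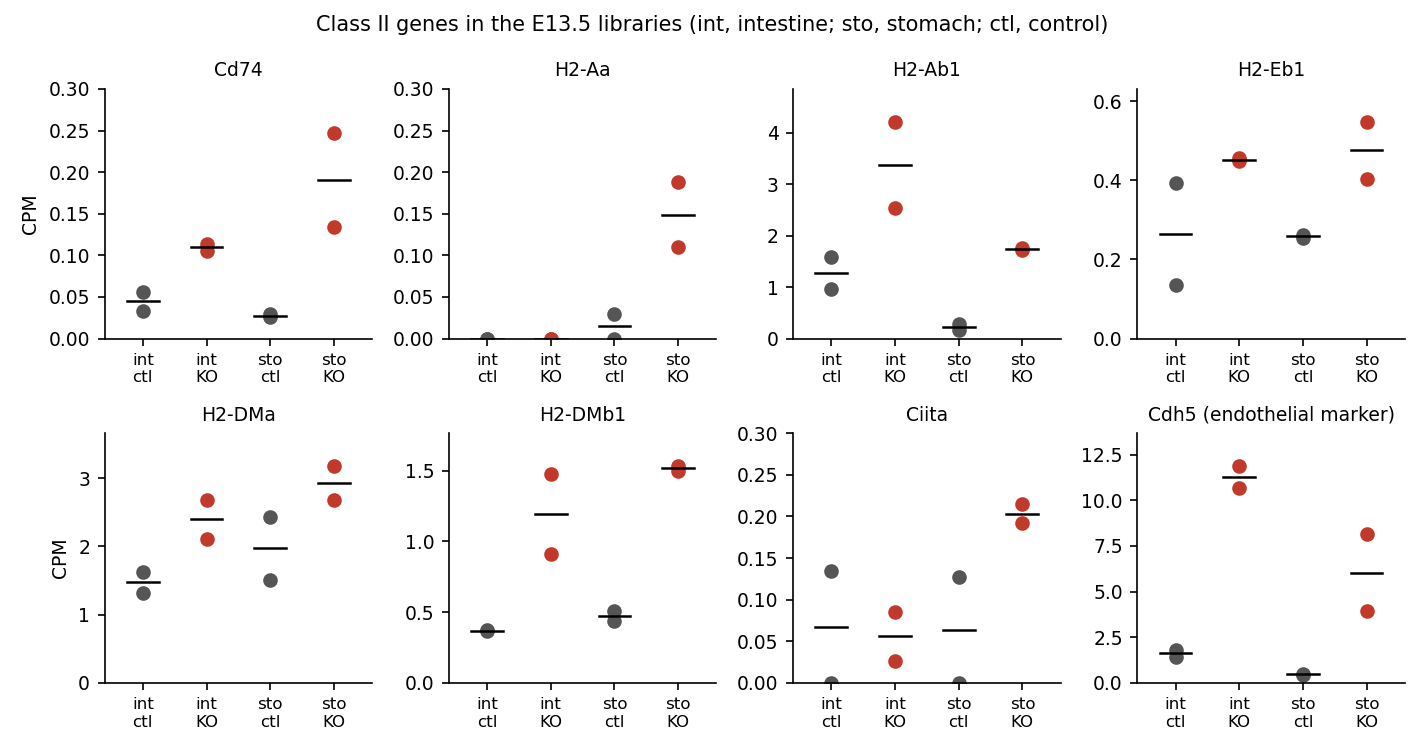
CPM of the 7 class II genes and of Cdh5, an endothelial marker, in the 8 E13.5 libraries, each panel on its own axis from 0, with 2 points per group and a bar at their mean (grey control, red Eed KO). H2-Ab1, H2-DMb1 and Cdh5 are higher in the Eed KO libraries of both organs, while H2-Aa stays at 0 CPM in the intestine.

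Between the organs of control embryos, H2-Ab1 was 5.42-fold higher in the intestine (0.955 and 1.58 CPM) than in the stomach (0.174 and 0.280 CPM), with a log2 fold change of 2.44 (SE 0.45, edgeR adjusted p = 0.019). It was the only one of the 4 genes tested to be called, beside 1.68% of all genes called higher in the intestine. H2-Eb1, H2-DMa and H2-DMb1 had log2 fold changes of 0.07, -0.41 and -0.36 and adjusted p of 0.98, 0.63 and 0.77. The call for H2-Ab1 was lost without intestine control replicate 2 (adjusted p = 0.098), stomach control replicate 1 (0.12) or stomach control replicate 2 (0.085), and with spike-in scaling (0.22), within a range of 0.00032 to 0.22 over all alternatives. In Eed KO embryos none of the 4 genes was called between the organs by edgeR or DESeq2, beside 4.4% of all genes in either direction, and 1 (H2-Ab1) had an unadjusted p below 0.05. H2-Ab1 again had the largest difference, 0.96 on the log2 scale (SE 0.35, adjusted p = 0.18). These organ comparisons share their libraries with the genotype comparisons.

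Several defining leukocyte markers were at or near 0 in the embryonic libraries, while others were measured. Ptprc had 0 or 1 counts in each of the 8, the macrophage list summed to 6.96 to 14.0 CPM, and the dendritic cell genes Xcr1, Clec9a, Cd209a, Siglech and Cd207 were at 0 throughout. The dendritic cell list still summed to 20.6 to 28.2 CPM, most of it Zbtb46 at 16.2 to 23.5 CPM. In the stomach, where H2-Ab1 rose, the 6 macrophage markers tested had a median log2 fold change of 1.64 beside 0.00 for all genes. Of these markers 1 was called higher, beside 4.84% of all genes tested, 1 was called lower and 4 were not called. The largest were Cx3cr1 (3.43, adjusted p = 0.059) and Csf1r (2.74, adjusted p = 0.063), and C1qb, below the filter, had 2 counts in each control library of the stomach against 12 and 10 in its Eed KO libraries. In the intestine none of 6 macrophage markers tested was called by edgeR or DESeq2, beside 2.38% of all genes called higher. Their median log2 fold change was 0.61, and 2 had an unadjusted p below 0.05. The macrophage list summed to 12.3 and 14.0 CPM in control and 10.8 and 9.67 CPM in Eed KO intestine. In stomach it summed to 7.83 and 6.96 against 11.1 and 7.84 CPM. Class II CPM per macrophage marker CPM was 0.276 and 0.255 in control and 0.620 and 0.876 in Eed KO intestine. In stomach this ratio was 0.430 and 0.388 in control and 0.617 and 0.965 in Eed KO. The part of macrophages in the H2-Ab1 values was not tested. Of the macrophage markers called in the stomach, Mrc1, a scavenger receptor of macrophages and some endothelium, rose by 1.89 on the log2 scale (adjusted p = 0.014). Lyz2, a lysozyme gene, fell by 1.08 (adjusted p = 0.023, beside 0.808% of all genes called lower), and with spike-in scaling it stood at 1.36 instead (adjusted p = 0.096). The call for Mrc1 was lost without any 1 of the 4 stomach libraries (adjusted p = 0.096 and 0.1 without control replicates 1 and 2, 0.06 and 0.08 without Eed KO replicates 1 and 2). That for Lyz2 was lost without control replicate 1 (0.13) or either Eed KO replicate (0.1 and 0.1). Endothelial markers moved in the same comparisons as H2-Ab1. They summed to 15.4 to 16.0 CPM in control and 27.6 to 50.3 CPM in Eed KO stomach, and to 16.6 to 21.4 CPM in control and 53.4 to 54.9 CPM in Eed KO intestine.

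Of the 8 endothelial markers, 6 were called higher in the Eed KO stomach, 4 in the Eed KO intestine and 4 in control intestine over control stomach. The shares of all genes tested were 4.84%, 2.38% and 1.68%, in the same order. Cdh5, the endothelial cadherin, had 0.49 and 0.43 CPM in control and 3.92 and 8.17 CPM in Eed KO stomach (log2 fold change 3.70, SE 0.40, adjusted p = 0.0025). The numbers of endothelial markers called fell to 2, 1 and 2 in the stomach without control replicate 1, control replicate 2 or Eed KO replicate 2. They fell to between 0 and 2 in the intestine without any 1 library, and to 0 or 1 between the control organs. The counts of H2-Ab1 per count of the endothelial gene Pecam1 were 0.429 and 0.44 in control and 0.727 and 0.36 in Eed KO stomach, and 0.378 and 0.452 in control and 0.245 and 0.455 in Eed KO intestine, overlapping in both organs. Per count of Cdh5 they were 0.667 and 0.870 in control and 0.238 and 0.355 in Eed KO intestine, lower without overlap, and 0.353 and 0.647 in control and 0.438 and 0.215 in Eed KO stomach, overlapping. The part of endothelial cells in the H2-Ab1 values was not tested. In the other pathway lists at E13.5, there was no processing, promoter factor or costimulation gene called in either genotype comparison by edgeR or DESeq2. At an unadjusted p below 0.05 there was 1 promoter factor gene in the intestine (Creb1) and 1 in the stomach (Nfyc), and no gene of the other 2 lists. Rfx5, at 20.03 to 27.6 CPM, and Rfxap, at 21.2 to 27.2 CPM, were measured in every embryonic library.

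Called ATAC-seq peaks lay at the starts of most class II genes in the embryonic mesenchyme of both genotypes. A called peak lay within 1000 bp of the start of 6 of the 7 genes in all 4 lists, the exception being Ciita, and 44.8% of all autosomal genes had one in all 4. Among genes that passed the embryonic low-count filter this share was 87.2%, and H2-Ab1, H2-Eb1, H2-DMa and H2-DMb1 were of that kind. Among genes that did not pass it was 16.5%, and Cd74 and H2-Aa were of that kind. Each list holds peaks called on pooled replicates, so peak heights carry no replicate error and were not tested. Fold enrichment over the background of the peak caller was 9.81 to 11.5 at H2-DMa, 5.13 to 7.35 at H2-Aa and 5.33 to 6.89 at H2-Eb1. At Cd74 it was 3.25 to 3.86 with -log10 q of 3.17 to 5.55, and with peaks kept only from a -log10 q of 5 upward both control lists lost it.

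The called regions at H2-Ab1 and H2-DMb1 were wider in the Eed KO lists. At H2-Ab1 the promoter peak spanned 366 bp (chr17:34263084-34263449) in control intestine and 364 bp (chr17:34263086-34263449) in control stomach, with a separate peak of 618 bp or 385 bp beginning 1457 or 1541 bp after the start. In the Eed KO lists 1 peak covered the whole stretch, 2101 bp (chr17:34263084-34265184) in intestine and 2235 bp (chr17:34263076-34265310) in stomach. Its fold enrichment over the wider region was 4.36 and 4.35, against 6.96 and 7.43 for the narrow control peaks. The width ratio, Eed KO over control, was 5.74 in intestine and 6.14 in stomach. Of the 17483 genes with a promoter peak in all 4 lists, 12 (0.0686%) had ratios at least as large in both organs. This ratio leaves out the separate control peak, which the joined Eed KO peak takes in. Peaks in the gene and 1000 bp on each side covered 984 bp in control and 2101 bp in Eed KO intestine. In stomach they covered 749 bp in control and 2235 bp in Eed KO. At H2-DMb1 the widths were 217 and 323 bp in the controls and 650 and 768 bp in the Eed KO lists, ratios of 3.00 and 2.38 that 0.463% of these genes reached in both. The median ratio was 1.03 in both organs. H2-Aa, H2-Eb1 and H2-DMa had ratios of 0.997, 1.13 and 1.14 in intestine and 0.925, 0.986 and 1.04 in stomach. At Cd74 the ratio went opposite ways, 0.448 in intestine (299 bp in control, 134 bp in Eed KO) and 1.92 in stomach (279 and 535 bp).

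**Figure D5:**
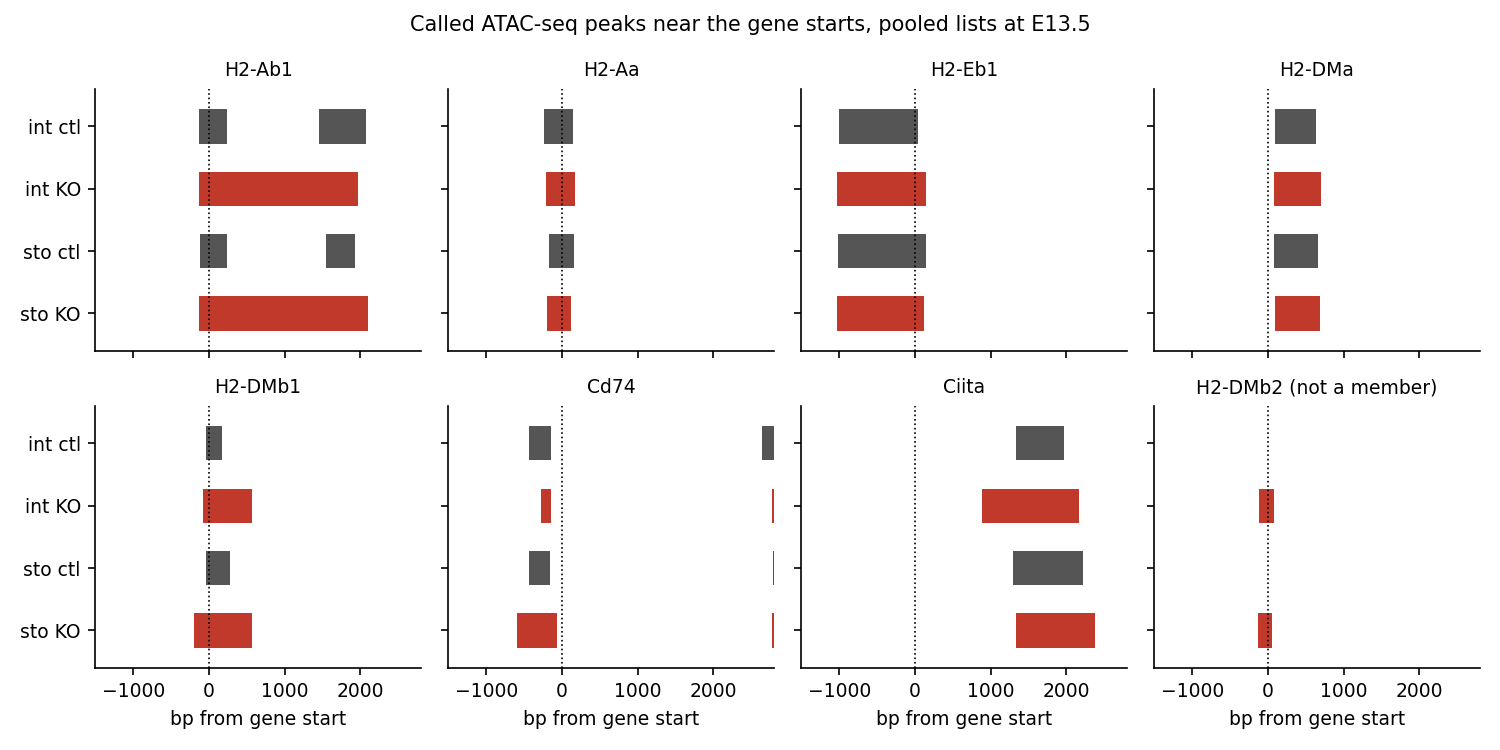
Called ATAC-seq peaks around the starts of the 7 class II genes and H2-DMb2, in bp from the gene start in the direction of transcription, for the 4 pooled E13.5 lists (grey control, red Eed KO) within the window drawn. Single wide bars at H2-Ab1 in both Eed KO lists span the place of 2 separate bars in the control lists.

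The printed promoters fell under these peaks. Of the 300 bases, called peaks covered 220 to 292 in H2-Aa, 297 to 300.0 in H2-Eb1 and 206 to 300.0 in H2-DMb1, over the 4 lists. No peak touched the printed H2-DMb2 stretch in any list. At the start of H2-DMb2 in the gene models used for counting, which lies upstream of that stretch, a peak was called in the Eed KO lists of intestine (198 bp, fold enrichment 3.85) and stomach (195 bp, 3.50) and in neither control list. H2-DMb2 was singled out after these values had been seen. For Ciita, peaks began 1333, 884, 1295 and 1341 bp after the gene start in control intestine, Eed KO intestine, control stomach and Eed KO stomach. They covered the annotated starts of 3 protein-coding transcripts, Ciita-203, Ciita-204 and Ciita-208, in all 4 lists, with -log10 q of 3.51, 4.32, 4.44 and 9.59. Of the other protein-coding transcripts, Ciita-205 and Ciita-206 had no peak within 1000 bp of their starts in any list. Ciita-201 had one only in the Eed KO intestine. These transcript starts were taken from a later GENCODE release than the one used for counting. Ciita RNA was between 0 and 8 counts in every embryonic library.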

How the data were processed

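RNA-seq was made from 12 libraries in 6 groups of 2, and ATAC-seq from 4 embryonic conditions. For the RNA files the authors trimmed reads with Trimmomatic 0.32, aligned them with STAR 2.5.1b to GRCm38 and deposited unnormalized counts per gene symbol from featureCounts on GENCODE vM4, with 99 spike-in transcripts. Embryonic libraries were stranded poly(A) libraries whose strand setting in counting is not given in the sources used here, and adult libraries were unstranded. For ATAC-seq the authors aligned with BWA 0.7.8 and deposited MACS2 2.1.2 broad peaks called on pooled reads. Of their columns, the fold enrichment and the −log10 q as deposited were used, and the deposited display score was not.

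Counts were fitted with edgeR 4.0.16 (limma 3.58.1, R 4.3.3), with filterByExpr, TMM scaling and quasi-likelihood tests with Benjamini-Hochberg adjustment over all genes tested, 15039 in the adult fit and 16218 in the embryonic fit of all 8 libraries. TPM used the gene lengths in the adult files and TMM factors over all 12 libraries. Intervals and limits cover counting error only, since reads carry no molecular identifiers. Alternatives were DESeq2 1.42.0, RLE scaling, no low-count filter, spike-in scaling, DESeq2 with 1 RUVg factor, a replicate block and each library left out. The organ dependence test and the scaling without the 7 class II genes were added after seeing the data. On simulated data for the real genes, 54.5% of 200 changed genes were recovered in the adult fit (14998 genes) and 78% in the stomach comparison (15959 genes). The 7 genes and all gene lists were chosen with earlier results of these data known, and 1 gene of the interferon gamma list is not reported here. The rule for names took all 7 genes, Eed, the genes called in each list with up to 4 of highest mean CPM, and the 5 genes nearest to Cd74 in profile. For the longer lists examples are given, and uncalled genes of low level were named after their values were seen. Peak and motif tables were made in Python 3.11.15 with pandas 2.3.3, and promoter sequences came from RefSeq.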

Additional observations from a re-analysis of the deposited data

Results flagged for a closer look

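Genes of the pathway lists whose Eed KO libraries all lay on one side of the controls in the adult intestine and all on the other side in an embryonic organ were singled out, and in none of them was the difference between the effects tested, because the stages were fitted separately. The value given is the adult minus the embryonic log2 fold change. Ifi30 had 3.38 against the intestine (3.19 in the adult and -0.20 in the embryo) and 3.38 against the stomach (-0.19 in the embryo). H2-Oa had 3.15 against the intestine (2.34 and -0.81). Socs1, an inhibitor of interferon signalling, had 1.27 against the stomach (0.89 and -0.38). The remaining differences were smaller, namely 0.84 for Sppl2a against the intestine, 0.45 and 0.40 for Nfya against the intestine and the stomach, 0.41 for Ctsd against the stomach and 0.31 for Ctsl against the intestine. Of the adult effects named here only those of Ifi30 and H2-Oa were called, and of the embryonic effects none was.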

How the results depend on the processing

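Among the 7 class II genes no direction that was called turned under any alternative, and H2-Eb1 turned its uncalled sign between organs in 2 of 10 alternatives in each genotype. In the intestine the class II genes called rose from 0 to 2 with DESeq2, 2 without the low-count filter, 4 with spike-in scaling and 2 with the replicate block. In the stomach they went from 2 to 4 with spike-in scaling, 0 with 1 RUVg factor and 0 to 1 with a library left out, and between control organs from 1 to 0 with spike-in scaling and 0 to 1 with a library left out. The cause was not tested. Over all genes, calls in the intestine went from 423 to 661 with DESeq2, 800 without the filter, 13688 with spike-in scaling and 74 to 363 with a library left out. In the stomach they went from 916 to 15438 with spike-in scaling and 344 to 650 with a library left out, between control organs from 822 to 155 and to 370 to 500, and between Eed KO organs from 714 to 115 and to 304 to 528. Adult calls went from 2944 to between 2299 and 3126 with a library left out. The adult over embryonic ratio of summed TPM in control intestine, 1080, ranged from 893 to 1267. Whether equal replicate numbers mark shared embryos is not stated in the labels, and organs of 1 embryo may share a number. Deviations of same-numbered libraries, with 2 pairs each, correlated at -0.017 in the adult, 0.086 in the intestine, 0.048 in the stomach, 0.222 in the control organ and 0.518 in the Eed KO organ comparison. The block brought H2-Ab1 (1.41, adjusted p = 0.026) and H2-DMb1 (1.69, adjusted p = 0.041) past the threshold in the intestine and changed no other class II count, with H2-Ab1 between organs at adjusted p = 0.0049 in control and 0.063 in Eed KO embryos. With at most 9 counts in any embryonic library, Cd74, H2-Aa and Ciita could not be tested at E13.5.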

Other observations

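Per count of Ptprc, the adult libraries held more Cd74 where Eed KO was labelled, with a mean of 85.1 (SD 18.4, n = 2) against 41.4 (SD 11.8, n = 2) Cd74 counts. Class II CPM per CPM of dendritic cell markers had means of 434 (SD 1.82) and 99.6 (SD 40.3), and per CPM of T cell markers 480 (SD 103) and 128 (SD 0.835), in the same order of groups. Of the T cell markers only Cd4, which macrophages can also express, was called, so that ratio is no measure of T cells alone. H2-Aa counts per H2-Ab1 count stayed near each other, at 0.374 (SD 0.0122) and 0.431 (SD 0.0355). These ratios belong to no fixed comparison and carry no test.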
